A study of Mus musculus with 2 samples.

Results

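Regulatory T (Treg)-like cells of imiquimod (IMQ)-treated dermis were 113 of the 4721 dermal cells that passed quality limits, or 2.39% (95% interval 1.98 to 2.87), and 113 of the 10634 barcodes in both libraries of the series. They were chosen by their own counts of unique molecular identifiers (UMIs), each of which marks 1 captured transcript. A cell with between 200 and 5000 genes and no more than 10% of its UMIs from mitochondria was kept if it had at least 2 UMIs of Cd3d, Cd3e and Cd3g together, no Trdc UMI, at least 3 UMIs of Foxp3, Ctla4, Ikzf2 and Tnfrsf4 together, and under 20 UMIs of C1qa, C1qb and C1qc per 10000. The CD3 genes mark T cells, Trdc encodes the constant chain of the γδ T cell receptor, the C1q genes mark macrophages, and the 4 remaining genes mark Treg cells.

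The study induced psoriasiform inflammation with IMQ, an agonist of Toll-like receptors, in wild type C57BL/6 mice and sequenced dermis and epidermis as 1 droplet-based 3′ single-cell library each. The labels give an age of 10 weeks and 5 days of treatment on the ear, whereas the methods give a younger age. The labels speak of live cells, whereas the methods describe sorting of CD45+ live cells from the dermis. No untreated immune library was analysed here, so every value describes treated skin. The number of mice behind a library is not given in the labels, and cells of 1 library are not replicates. No test between cell groups was therefore made, and all intervals are exact at 95% and take in counting error alone.

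Treg cells are CD4+ T cells that restrain other immune cells, and the transcription factor Foxp3 defines them. They depend on interleukin 2, carry the inhibitory receptor CTLA-4 and members of the tumour necrosis factor (TNF) receptor family, and in skin and other barrier tissues can take on a repair-related state with the surface receptor KLRG1, the factor GATA3, the interleukin 33 receptor and the growth factor amphiregulin. IMQ-treated dermis also holds γδ T cells, the main source of interleukin 17 in this model.

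T cells of the same library formed 2 reference groups. The first was the 103 cells that met every criterion but had 0 to 2 UMIs of the 4 Treg markers, called other Trdc-negative T cells. The second was the 120 cells with at least 2 CD3 UMIs, at least 1 Trdc UMI and the same C1q limit, called Trdc+ T cells. Treg-like cells made up 33.6% (28.6 to 39.0) of these 336 dermal T cells and 52.3% (45.4 to 59.1) of the Trdc-negative T cells. Macrophages, taken as the 859 cells at or above the C1q limit, served as background, since they should lack T cell transcripts. They include the 7 cells that met every other criterion of the rule, and doublets were not removed. This background can therefore hold more than free RNA.

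The Treg-like cells were the shallowest of these groups. Their UMIs per cell ran from 950 to 27897 with a median of 5949, against a median of 9459 in other Trdc-negative T cells, 9922.5 in Trdc+ T cells and 9253 in macrophages. Genes per cell ran from 506 to 4343 and mitochondrial UMIs from 0.719% to 9.72%. The summed counts were 893722 UMIs in Treg-like cells, 1099904 in other Trdc-negative T cells and 1429412 in Trdc+ T cells. Levels are therefore given as CPM, the UMIs of a gene per 1000000 UMIs of these sums. Shares of cells with a gene are given as counted and also after each cell was drawn down to 1000 UMIs, called thinned, which left out 4 Treg-like cells and 20 macrophages. The libraries shared 45 cell barcodes, of which 0 belonged to a Treg-like cell.

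Several limits of the rule removed cells. Without the limits on genes and mitochondria 118 cells met it, so 5 were lost to those limits. The C1q limit removed 7 cells, a Trdc UMI removed 17, of which 3 had exactly 1 such UMI, and too few CD3 UMIs removed 26. Among the cells removed by Trdc and by low CD3 counts, 1 each had a Foxp3 UMI.

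The 4 marker genes of the rule are given as a description. Their summed UMIs ran from 3 to 139 per cell with a median of 16. Foxp3, the defining transcription factor, had 114 UMIs in 50 of the 113 cells (44.2%, 34.9 to 53.9), and at most 7 in 1 cell. Ctla4, the inhibitory receptor for the B7 ligands, had 452 UMIs in 78.8% of the cells. Ikzf2, which encodes the transcription factor Helios, had 454 UMIs in 84.1% of the cells. Tnfrsf4, which encodes the costimulatory receptor OX40, was the most abundant with 1282 UMIs in 85.8% of the cells, a median of 5 and a highest value of 98.

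Detection in macrophages was far lower, at 0.698% for Foxp3, 3.84% for Ctla4, 3.03% for Ikzf2 and 5.24% for Tnfrsf4. After thinning, the shares in Treg-like cells were 14.8% for Foxp3, 40.8% for Ctla4, 43.8% for Ikzf2 and 59.5% for Tnfrsf4. Of all Foxp3 UMIs in the passing dermal cells, Treg-like cells held 114 of 153 (74.5%), and of all cells with a Foxp3 UMI they were 50 of 81. These values follow from the rule, which required UMIs of these genes. All 4 markers were seen in 37 cells, 3 in 44, 2 in 19 and 1 in 13. No cell passed on Foxp3 alone, whereas 6 passed on Ikzf2 alone, 4 on Ctla4 alone and 3 on Tnfrsf4 alone.

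At the threshold the groups ran into each other. The Trdc-negative T cells with a marker sum of 0, 1 and 2 numbered 58, 26 and 19, and those with a sum of 3, 4, 5 and 6 numbered 10, 5, 8 and 7. Among the 19 cells just outside, 3 had a Foxp3 UMI, 7 a Tnfrsf18 UMI and 16 a Trac UMI. Among the 10 cells just inside, 1 had a Foxp3 UMI, 5 a Tnfrsf18 UMI and 7 a Trac UMI. The counts on either side of the threshold thus overlapped in these genes.

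T cell receptor transcripts were mostly those of αβ T cells, where the absence of Trdc was set by the rule. Trac, the constant gene of the α chain, had 427 UMIs in 98 Treg-like cells (86.7%), 160 in 46.6% of other Trdc-negative T cells and 50 in 21.7% of Trdc+ T cells. Its level was 3.28-fold (2.73 to 3.96) above the first reference and 13.5-fold (10.2 to 18.7) above the second. Other Trdc-negative T cells, 46.6% of which had a Trac UMI, were therefore not shown to be a pure αβ T cell group. Segments of the α and β variable regions were rarely captured by this 3′ assay, with 12 UMIs of 9 segments in Treg-like cells, against 2 UMIs of 1 γ or δ segment. Trdc+ T cells had 56 UMIs of γ and δ segments. Tcrg-C1, a constant gene of the γ chain, had 15 UMIs in 7 Treg-like cells, at 16.8 CPM against 51.8 CPM and 274 CPM in the reference groups.

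Cd4, the co-receptor for class II major histocompatibility complex (MHC), had 71 UMIs in 44 Treg-like cells, 14 in other Trdc-negative T cells and 4 in Trdc+ T cells. It was 6.07-fold (3.49 to 12.0) and 25.4-fold (10.6 to 107) higher. The CD8 genes were seen in 7 Treg-like cells (6.19%, 2.53 to 12.3), and 42 cells had a Cd4 UMI without a CD8 UMI. Cd4-positive cells thus outnumbered CD8-positive cells, while most cells had no UMI of either gene at this depth.

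A gene entered a comparison with 50 or more UMIs in the 2 groups summed, and a gene counted as higher or lower at a 2-fold ratio of CPM with a pseudocount of 0.5 UMI. A gene just above this minimum that was counted in almost no cell of 1 group had to differ, so counts over a list describe these libraries only. Against other Trdc-negative T cells 3887 genes were compared, of which 210 (5.4%) were higher and 123 (3.16%) lower in Treg-like cells. Against Trdc+ T cells 4269 genes were compared, of which 247 (5.79%) were higher and 120 (2.81%) lower. The 4 markers of the rule are among the higher genes and Trdc is among the lower genes of the second comparison. The median log2 ratio over all genes compared was 0.05 in each case, so the scaling was nearly centred. Both comparisons share the Treg-like cells and their values stand side by side.

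**Figure D1:**
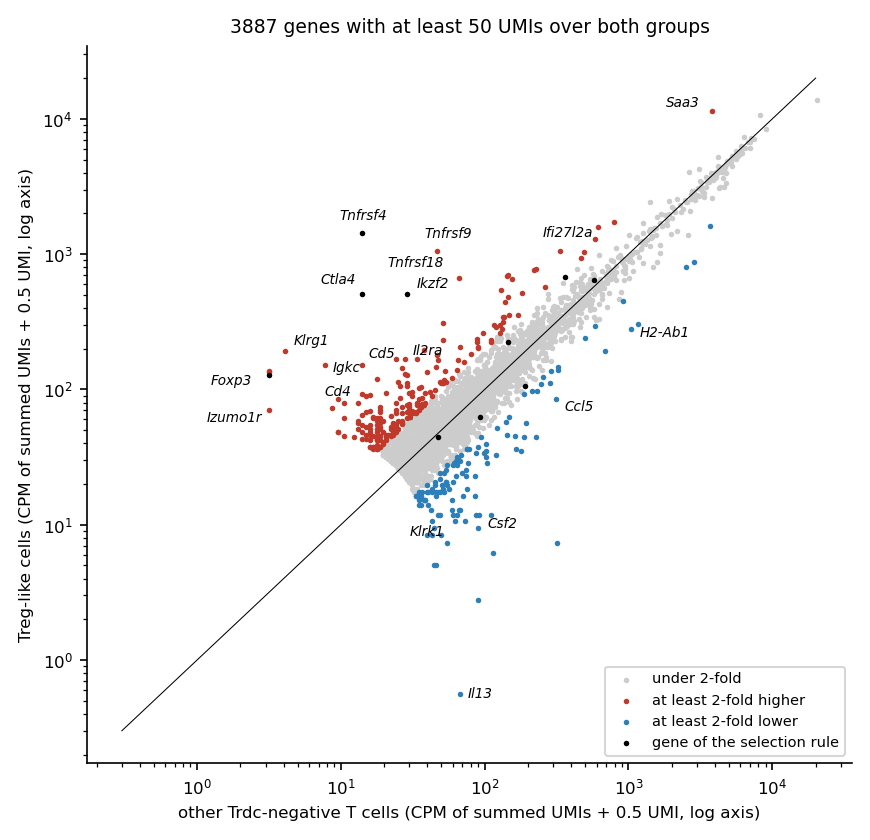
CPM of summed UMIs plus 0.5 UMI in Treg-like cells (vertical, log axis) against other Trdc-negative T cells (horizontal, log axis), where each point is 1 of the 3887 genes compared and the line marks equal levels. Red points are the genes at least 2-fold higher, blue those at least 2-fold lower and black the genes of the selection rule. Klrg1, Tnfrsf9, Izumo1r, Igkc, Cd5 and Tnfrsf18 lie far above the line, and Il13, with 0 UMIs in Treg-like cells, lies lowest.

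Treg genes that the rule did not use were also high. Of 16 such genes listed, 11 reached 50 UMIs in each comparison, with 7 higher and 0 lower against other Trdc-negative T cells at a median log2 ratio of 1.36, and 5 higher and 0 lower against Trdc+ T cells at a median of 0.85. These shares stand against 5.4% and 5.79% of all genes compared. The genes of the first comparison were Tnfrsf9, Izumo1r, Tnfrsf18, Il2ra, Cd81, Il2rb and Icos, and Il2ra and Il2rb dropped below 2-fold in the second. The first comparison gave 5 of 10 higher and 0 lower (median 1.43) when both groups were limited to cells with a Trac UMI. Under that limit 226 genes in all were higher.

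Tnfrsf9, which encodes the costimulatory TNF receptor 4-1BB, had 948 UMIs in Treg-like cells, 51 in other Trdc-negative T cells and 223 in Trdc+ T cells. It was seen in 74.3% (65.3 to 82.1), 12.6% and 16.7% of the cells, and in 6.05% of macrophages, with thinned shares of 50.3%, 4.88%, 7.52% and 0.842%. The level was 22.7-fold (17.3 to 30.9) above other Trdc-negative T cells and 6.79-fold (5.87 to 7.90) above Trdc+ T cells. No cell held much of the total, since the richest cell had 54 of the 948 UMIs and the median cell 4.

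Tnfrsf18, which encodes the TNF receptor GITR, had 598 UMIs in Treg-like cells, 72 in other Trdc-negative T cells and 107 in Trdc+ T cells. It was seen in 81.4% (73.0 to 88.1), 37.9% and 29.2% of the cells, and in 5.94% of macrophages, with thinned shares of 44.5%, 9.32%, 6.84% and 0.808%. The level was 10.2-fold (7.99 to 13.2) and 8.90-fold (7.27 to 11.1) higher. Treg-like cells held 77.6% of the Tnfrsf9 UMIs and 77.0% of the Tnfrsf18 UMIs of all dermal T cells. Of the 84 Treg-like cells with Tnfrsf9, 76 also had Tnfrsf18 (90.5%, 82.1 to 95.8).

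OX40, GITR and 4-1BB were often seen in the same cells, where OX40 is a gene of the rule. All 3 genes were present in 74 of the 113 Treg-like cells (65.5%, 56.0 to 74.2) and none of them in 7. All 3 genes lie on mouse chromosome 4 of GRCm38, with Tnfrsf4 at chr4:156013843-156016612 and Tnfrsf18 at chr4:156026164-156028895 on the plus strand. Only 9551 bases separate the end of Tnfrsf4 from the start of Tnfrsf18, while Tnfrsf9 lies apart at chr4:150914562-150946102.

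The promoters of these 3 receptor genes are shown because Tnfrsf4 was a gene of the rule and the other two had high ratios in both comparisons. Each is 300 bases long, from 250 before to 50 after a RefSeq transcription start on GRCm38.p6, 5′ to 3′ on the plus strand. Capitals mark letters that match the motif GGGNNTTCC on either strand, a short form of the site that NF-κB factors bind.
Tnfrsf4 (chr4:156013445-156013744): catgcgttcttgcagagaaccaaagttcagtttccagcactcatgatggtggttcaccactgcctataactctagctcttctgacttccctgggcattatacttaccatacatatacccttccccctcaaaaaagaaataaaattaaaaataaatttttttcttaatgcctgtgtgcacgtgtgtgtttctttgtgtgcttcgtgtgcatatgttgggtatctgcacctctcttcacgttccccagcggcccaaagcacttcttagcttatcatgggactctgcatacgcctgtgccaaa
Tnfrsf18 (chr4:156026072-156026371): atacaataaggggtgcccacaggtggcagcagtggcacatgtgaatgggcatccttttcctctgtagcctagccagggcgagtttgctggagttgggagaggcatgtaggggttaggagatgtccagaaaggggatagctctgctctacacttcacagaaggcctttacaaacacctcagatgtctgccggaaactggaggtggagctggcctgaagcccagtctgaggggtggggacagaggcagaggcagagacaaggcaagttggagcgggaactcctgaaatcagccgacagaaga
Tnfrsf9 (chr4:150927749-150928048): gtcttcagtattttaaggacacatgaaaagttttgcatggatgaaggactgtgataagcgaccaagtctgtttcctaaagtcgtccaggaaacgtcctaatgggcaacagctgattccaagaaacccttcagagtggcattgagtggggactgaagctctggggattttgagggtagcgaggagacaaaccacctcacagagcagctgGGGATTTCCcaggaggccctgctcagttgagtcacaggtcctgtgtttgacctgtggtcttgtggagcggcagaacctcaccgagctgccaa
Tnfrsf9 has a further RefSeq start, whose window (chr4:150919905-150920204) held no match. The only match stood in the window of the later Tnfrsf9 start, and 5.82% of all 32851 promoters of that length held one. A match is a description of letters only. Of 14 listed NF-κB target genes that were compared with other Trdc-negative T cells, 1 was higher (Nfkb2, 2.01-fold, 1.31 to 3.14) and 0 were lower, at a median log2 ratio of 0.39, beside 5.4% of all genes compared. With a Foxp3 UMI required, 4 of 13 were higher (median 0.61), where 198 genes in all were higher. The count was 2 of 13 with a Trac UMI required in both groups. It was 1 of 13 with a mitochondrial limit of 5% and also without the highest doublet scores. Against Trdc+ T cells 1 of 13 was higher, beside 5.79% of all genes, and 3 of 13 with a Foxp3 UMI required. Whether NF-κB acts on these genes was not tested.

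**Figure D2:**
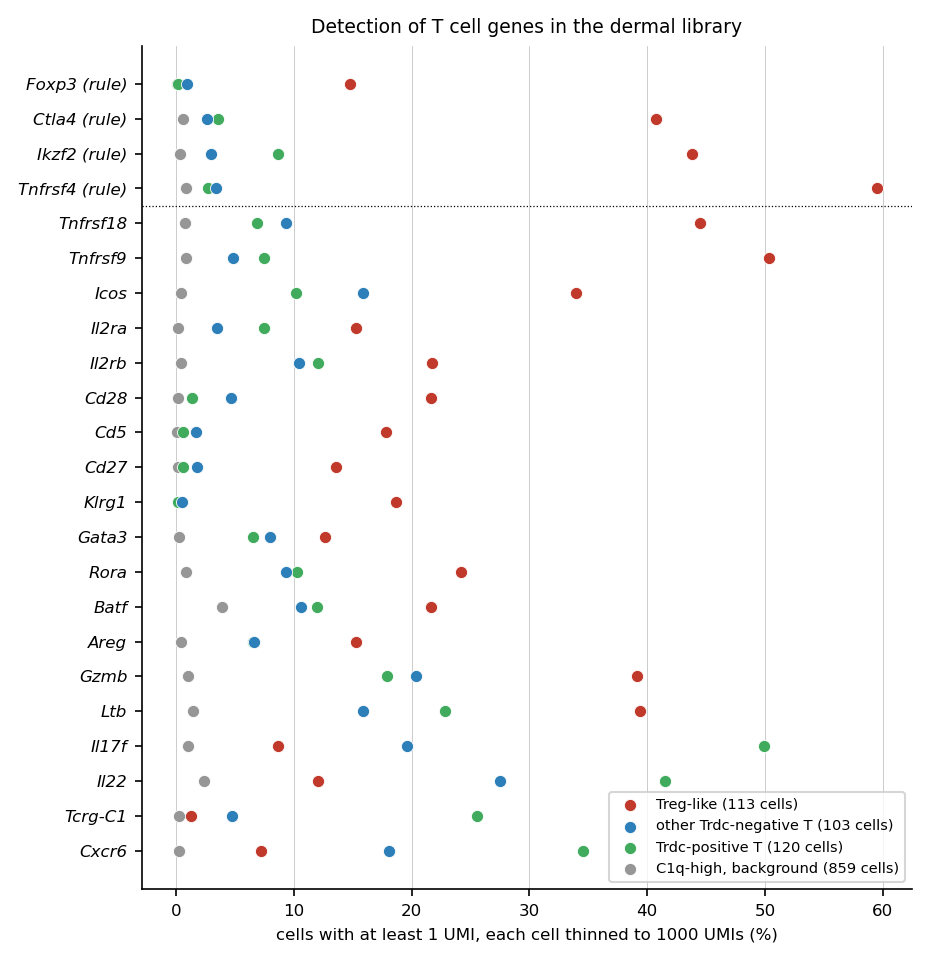
Share of cells with at least 1 UMI of each gene after every cell was thinned to 1000 UMIs (horizontal, percent), for Treg-like cells, other Trdc-negative T cells, Trdc+ T cells and macrophages as the background. Each point is 1 group, overlapping points hide each other, and the dotted line sets off the 4 genes of the selection rule. Tnfrsf9 and Tnfrsf18 reached 50.3% and 44.5% in Treg-like cells and stayed below 10% in every other group.

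Costimulatory receptors formed the list with the most genes above 2-fold. Of 19 costimulation and TNF receptor genes, 10 of 13 compared were higher than in other Trdc-negative T cells (median log2 ratio 2.08) and 10 of 16 were higher than in Trdc+ T cells (median 2.19), with 0 lower in each, against 5.4% and 5.79% of all genes higher. The same 10 genes were higher in both, namely Tnfrsf9, Tnfrsf18, Icos, Cd5, Cd6, Cd27, Cd28, Cd2, Slamf1 and Slamf6. Tnfrsf9, Tnfrsf18 and Icos also belong to the list of Treg genes.

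Cd28, the receptor that gives naive T cells their second signal, had 175 UMIs in 62.8% of Treg-like cells, 41 in other Trdc-negative T cells and 22 in Trdc+ T cells. Its level was 5.20-fold (3.72 to 7.57) and 12.5-fold (8.14 to 20.8) higher. Icos, a CD28-family receptor, had 319 UMIs in 77.0% of the cells and was 2.09-fold (1.74 to 2.51) and 3.07-fold (2.54 to 3.73) higher. The first Icos ratio fell below 2-fold with a mitochondrial limit of 5% (log2 0.97), with C1q under 5 per 10000 UMIs (0.82) and with a Trac UMI required in both groups (0.58). Cd28, Ctla4 and Icos are neighbours on chromosome 1 of GRCm38, at chr1:60716800-60773359, chr1:60887000-60915832 and chr1:60977927-61000320, so the selection gene Ctla4 lies between genes that the rule did not use.

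Cd27, a TNF receptor for CD70, was 6.55-fold (3.85 to 12.6) and 20.3-fold (9.62 to 61.3) higher, with 82 UMIs against 15 and 6. Cd5, which dampens T cell receptor signals, was 10.8-fold (6.53 to 20.5) and 23.0-fold (12.4 to 54.0) higher, with 136 UMIs against 15 and 9. Slamf6, a homotypic receptor, was 7.54-fold (4.12 to 16.4) and 20.5-fold (9.15 to 71.1) higher. Each of these receptors separated Treg-like cells more from Trdc+ T cells than from other Trdc-negative T cells in these ratios, and the difference between the ratios was not tested.

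Receptors for interleukin 2 showed another order. Il2ra, the high-affinity α chain CD25, had 150 UMIs in 48.7% of Treg-like cells, 30 in 17.5% of other Trdc-negative T cells and 136 in 48.3% of Trdc+ T cells. Its level was 6.07-fold (4.14 to 9.44) above the first group and 1.76-fold (1.39 to 2.24) above the second, with thinned shares of 15.3%, 3.51% and 7.44%. Il2rb, the β chain, was 2.57-fold (2.01 to 3.32) and 1.81-fold (1.47 to 2.22) higher. Stat5a, which carries the signal of this receptor, was 3.63-fold (2.19 to 6.47) and 3.17-fold (2.03 to 5.14) higher with 60 UMIs. Il2 itself had 4 UMIs in 4 Treg-like cells. CD25 transcripts were thus counted in about as many Treg-like as Trdc+ T cells before thinning, at unequal depth.

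Izumo1r, the folate receptor 4 of Treg cells, had 63 UMIs in 23.9% of Treg-like cells, 3 in other Trdc-negative T cells and 8 in Trdc+ T cells, a 22.3-fold (8.45 to 129) and 11.9-fold (6.02 to 30.4) higher level. Ikzf4, which encodes the Helios relative Eos, had 31 UMIs against 3 and 4 and stayed below the minimum of 50. Lrrc32, which displays latent transforming growth factor β (TGF-β) on Treg cells, had 11 UMIs in 9 Treg-like cells, 0 in other Trdc-negative T cells and 2 in Trdc+ T cells. Against the first group, taken at 3 counts, this is at least 4.51-fold higher. Tigit and Gpr83, a further inhibitory receptor and a Treg-associated receptor, had only 4 and 1 UMIs. Capg, Ly6a and Socs2 of the same list were within 2-fold in both comparisons.

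Genes linked to tissue Treg cells were led by Klrg1. Of 22 listed genes, 7 of 16 compared were higher than in other Trdc-negative T cells (median log2 ratio 0.93) and 8 of 16 were higher than in Trdc+ T cells (median 0.86), where 1 was lower, against 5.4% and 5.79% of all genes higher and 2.81% lower. The first comparison gave 5 of 16 higher and 1 lower (median 0.69) with a Trac UMI required in both groups. It gave 9 of 16 higher and 2 lower (median 1.12) with a Foxp3 UMI required in Treg-like cells. Klrg1, an inhibitory receptor for cadherins, had 172 UMIs in 51 Treg-like cells (45.1%, 35.8 to 54.8), 4 in 1 other Trdc-negative T cell and 3 in 2 Trdc+ T cells. Its level was 47.2-fold (20.3 to 196) and 78.8-fold (30.9 to 449) higher, the largest ratio in either comparison among the genes outside the rule that were seen in at least 20% of the cells. Macrophages had Klrg1 in 1.63% of cells, and the thinned shares were 18.7% in Treg-like cells, 0.504% in other Trdc-negative T cells and 0.181% in macrophages. Treg-like cells held 172 of the 179 Klrg1 UMIs of dermal T cells (96.1%, 92.1 to 98.4). The gene lies at chr6:122270596-122282882 on the minus strand of GRCm38.

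Gata3, a factor of type 2 and tissue Treg cells, had 101 UMIs in 47.8% of Treg-like cells and was 2.10-fold (1.51 to 2.96) and 2.21-fold (1.62 to 3.03) higher. Rora, a nuclear receptor of skin Treg cells, was 2.67-fold (2.09 to 3.45) and 2.27-fold (1.83 to 2.83) higher. Batf, a factor needed for tissue Treg cells, was 2.14-fold (1.74 to 2.65) and 2.02-fold (1.67 to 2.44) higher. These 3 ratios lay close to 2-fold, and all fell below it against other Trdc-negative T cells when both groups were limited to cells with a Trac UMI, at log2 ratios of 0.80 for Gata3, 0.81 for Rora and 0.52 for Batf.

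Il1rl1, the interleukin 33 receptor, had 37 UMIs in 26 Treg-like cells against 6 and 3 in the reference groups, below the minimum of 50. Ccr8, a chemokine receptor of skin Treg cells, had 15 UMIs in 13 cells against 1 and 4. Ccr4, a skin-homing receptor, had 21 UMIs against 5 and 4, and Ccr3 had 19 UMIs in 10 cells against 0 and 1. Each was thus counted mostly in Treg-like cells, but in few of them. None of the 7 chemokine receptors that reached the minimum was 2-fold higher in either comparison, beside 5.4% and 5.79% of all genes. With a Trac UMI required in both groups, 1 of 6 was higher and 1 lower than in other Trdc-negative T cells. Without the cells rich in fibroblast transcripts described later, 1 of 7 was higher and 1 lower than in Trdc+ T cells. Ccr2 was nearly level at 234, 220 and 224 CPM. Cxcr6 was the 1 gene of the 7 that was lower than in Trdc+ T cells, at 163 CPM against 459 CPM, beside 2.81% of all genes lower. Of its UMIs, 127 came from the 12 cells rich in type 17 cytokines described later, at 793 CPM, against 19 UMIs and 25.9 CPM in the other 101.

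Areg, which encodes amphiregulin, had 184 UMIs in 41 Treg-like cells (36.3%, 27.4 to 45.9), 130 in 13.6% of other Trdc-negative T cells and 231 in 19.2% of Trdc+ T cells. Its level was 1.74-fold (1.38 to 2.20) and 1.27-fold (1.04 to 1.55) higher, below 2-fold in each comparison. The thinned shares were 15.3%, 6.63% and 6.56%, and Treg-like cells held 33.8% of the Areg UMIs of dermal T cells, close to their 33.6% of the cells. Without the cells rich in interleukins 17 and 22 described later, an alternative chosen after the data were seen, the log2 ratio against other Trdc-negative T cells rose from 0.80 to 2.94, and with a Trac UMI required in both groups it was −0.03. The Areg ratio thus depended on which reference cells were counted.

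Penk and Tff1 had high ratios that rested on few cells. Penk, the precursor of enkephalins, had 122 UMIs in 12 Treg-like cells, and 81.1% of them came from 2 cells. Tff1, a trefoil peptide, had 120 UMIs in 20 cells, and 63.3% of them came from 1 cell. Saa3, an acute phase gene, had 10165 UMIs, of which 7266 (71.5%) came from 1 cell, and its median cell had 3. The summed levels of these 3 genes therefore do not describe a typical Treg-like cell.

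Suppressive mediators ranged from few UMIs to abundant transcripts. Of 18 listed genes, 4 of 9 compared were higher than in other Trdc-negative T cells and 2 of 8 than in Trdc+ T cells, with 0 lower, against 5.4% and 5.79% of all genes higher. In the first comparison 1 of 6 was higher when a Trac UMI was required in both groups, and 2 of 6 when a Foxp3 UMI was required in Treg-like cells. Il10, the inhibitory cytokine, had 43 UMIs in 22 Treg-like cells and was 3.45-fold (1.92 to 6.84) and 3.57-fold (2.06 to 6.58) higher, although 13.9% of macrophages, which can produce it, also had the transcript. Ebi3, a subunit of interleukins 27 and 35, had 27 UMIs against 9 and 4. Itgb8, the integrin chain that activates TGF-β, had 18 UMIs in 15 cells against 1 and 0. Tgfb1 was 1.52-fold (1.23 to 1.89) and 1.41-fold (1.16 to 1.71) higher. Gzmb, which encodes granzyme B, was abundant with 930 UMIs in 68 cells and 2.13-fold (1.92 to 2.38) and 1.55-fold (1.41 to 1.69) higher, and the first ratio fell to log2 0.81 without cells with a Mki67 or Top2a UMI. Lgals1, the galectin of many activated lymphocytes, was at 4021 CPM and not higher than in either group.

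Some transcription factors were higher and most were within 2-fold. Of 36 listed factors, 8 of 24 compared were higher and 1 lower against other Trdc-negative T cells, and 7 of 26 were higher and 1 lower against Trdc+ T cells, beside 5.4% and 5.79% of all genes higher and 3.16% and 2.81% lower. Tox, a factor of chronically stimulated T cells, was 4.57-fold (2.61 to 8.89) higher in the first comparison, Satb1, a genome organiser, 2.45-fold (1.68 to 3.66), and Hif1a, the oxygen-sensing factor, 2.05-fold (1.66 to 2.55). Klf4, a factor of quiescent cells, was the lower gene in both, at 35.8 CPM against 74.6 and 77.0 CPM. Id2, an inhibitor of E proteins, was 1.70-fold (1.52 to 1.90) and 1.75-fold (1.57 to 1.95) higher in the reference groups. Tbx21, the type 1 factor T-bet, had 0 UMIs in Treg-like cells.

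Genes of naive and circulating T cells went both ways. Of 13 listed genes, 2 of 7 compared were higher and 0 lower than in other Trdc-negative T cells (median log2 ratio 0.57), and 4 of 9 were higher and 1 lower than in Trdc+ T cells (median 0.48), beside 5.4% and 5.79% of all genes higher and 3.16% and 2.81% lower. In the first comparison 4 of 7 were higher and 0 lower with a Trac UMI required in both groups (median 1.05). Without the highest doublet scores 3 of 7 were higher and 1 lower (median 0.51). S1pr1, the receptor for egress into lymph, had 32 UMIs against 10 and 11, and Lef1, a factor of naive T cells, 16 against 2 and 4, both below the minimum of 50 UMIs. Tcf7, the relative of Lef1, ran the other way, at 13.4 CPM against 30.0 and 32.9 CPM, and was below that minimum in the first comparison.

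**Figure D3:**
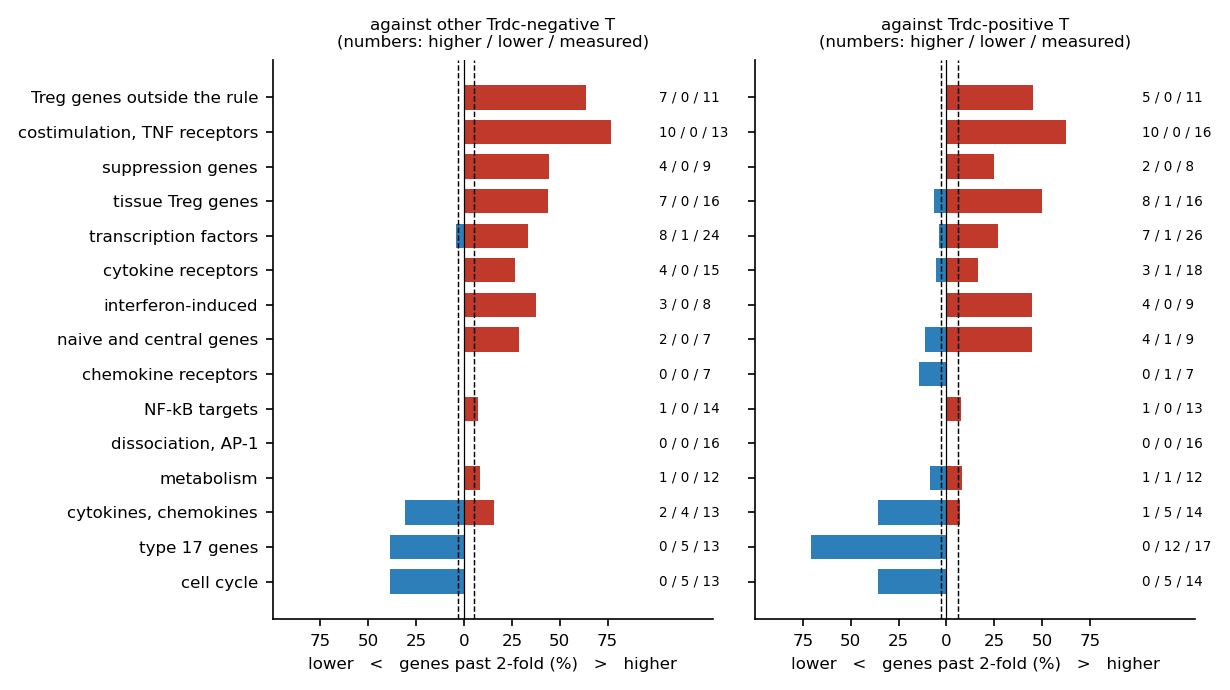
Share of the compared genes of each list that were at least 2-fold higher (red, to the right) or lower (blue, to the left) in Treg-like cells (horizontal, percent), against other Trdc-negative T cells (left panel) and Trdc+ T cells (right panel). Numbers beside the bars give the genes higher, lower and compared, and the dashed lines mark the shares over all genes compared. Costimulation and Treg lists reach furthest to the right, and type 17 and cell cycle genes to the left.

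The lowest ratios against Trdc+ T cells were those of γδ T cell genes, and Klrk1 had the lowest ratio against other Trdc-negative T cells among the genes seen in at least 20% of cells. Cd163l1, a scavenger receptor of γδ T cells, had 1 UMI in Treg-like cells against 361 in 56 Trdc+ T cells, whose level was 151-fold (40.3 to 8939) higher. Tcrg-C4, a further γ constant gene, had 1 UMI against 64. Klrk1, which encodes the activating receptor NKG2D, had 9 UMIs in Treg-like cells and was 5.86-fold (3.05 to 14.0) higher in other Trdc-negative T cells and 11.2-fold (6.08 to 26.3) higher in Trdc+ T cells. Trdc was part of the rule, so these γδ T cell genes are given as a description.

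Cytokine genes went both ways, with more lower than higher. Of 28 listed cytokine and chemokine genes, 2 of 13 compared were higher and 4 lower than in other Trdc-negative T cells, against 5.4% of all genes higher and 3.16% lower. In comparison with Trdc+ T cells 1 of 14 was higher and 5 lower, against 5.79% and 2.81%. Il13, the type 2 cytokine, had 0 UMIs in Treg-like cells, 73 in 7 other Trdc-negative T cells and 41 in 6 Trdc+ T cells, so it was at least 19.8-fold and 8.54-fold lower when 3 counts over the group are allowed. Csf2, which encodes the growth factor GM-CSF, had 10 UMIs against 100 and 123, and its level was 7.78-fold (4.24 to 17.5) and 7.35-fold (4.04 to 16.4) higher in the reference groups. Ifng, the type 1 cytokine, had 4, 22 and 4 UMIs. Ltb, which encodes lymphotoxin β, was the exception beside Il10, with 395 UMIs in 94 Treg-like cells and a 3.19-fold (2.65 to 3.88) higher level than in other Trdc-negative T cells, but 1.81-fold (1.56 to 2.10) against Trdc+ T cells. Without the cells rich in type 17 cytokines, 3 of 8 cytokine genes were higher and 2 lower than in other Trdc-negative T cells, and without the highest doublet scores 3 of 13 were higher and 3 lower. With a Foxp3 UMI required in Treg-like cells, 1 of 12 was higher and 8 lower in that comparison (median log2 ratio −1.44). Against Trdc+ T cells the same requirement gave 1 of 13 higher and 7 lower (median −1.37).

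Type 17 genes were lower in sum but not absent. Of 20 listed genes, 0 of 13 compared were higher and 5 lower than in other Trdc-negative T cells (median log2 ratio −0.90), and 0 of 17 were higher and 12 lower than in Trdc+ T cells (median −1.53), against 3.16% and 2.81% of all genes lower. In the first comparison 10 of 12 were lower with a Foxp3 UMI required (median −3.74), 3 of 12 without fibroblast-rich cells and 2 of 12, with 1 higher, without the highest doublet scores (median −0.57). Il22 went from a log2 ratio of −1.19 to 0.027 without cells that had a Tcrg-C1, Tcrg-C2 or Tcrg-C4 UMI. Treg-like cells still held 464 Il17a, 918 Il17f and 1453 Il22 UMIs, which were 14.8%, 12.4% and 16.4% of the UMIs of these genes in dermal T cells. Nearly all came from few cells. The 12 cells with at least 10 UMIs of these 3 genes, a limit set after the values were seen, held 2783 of 2835 such UMIs (98.2%), and 1 cell held 1104 of them and 381 of the 464 Il17a UMIs.

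**Figure D4:**
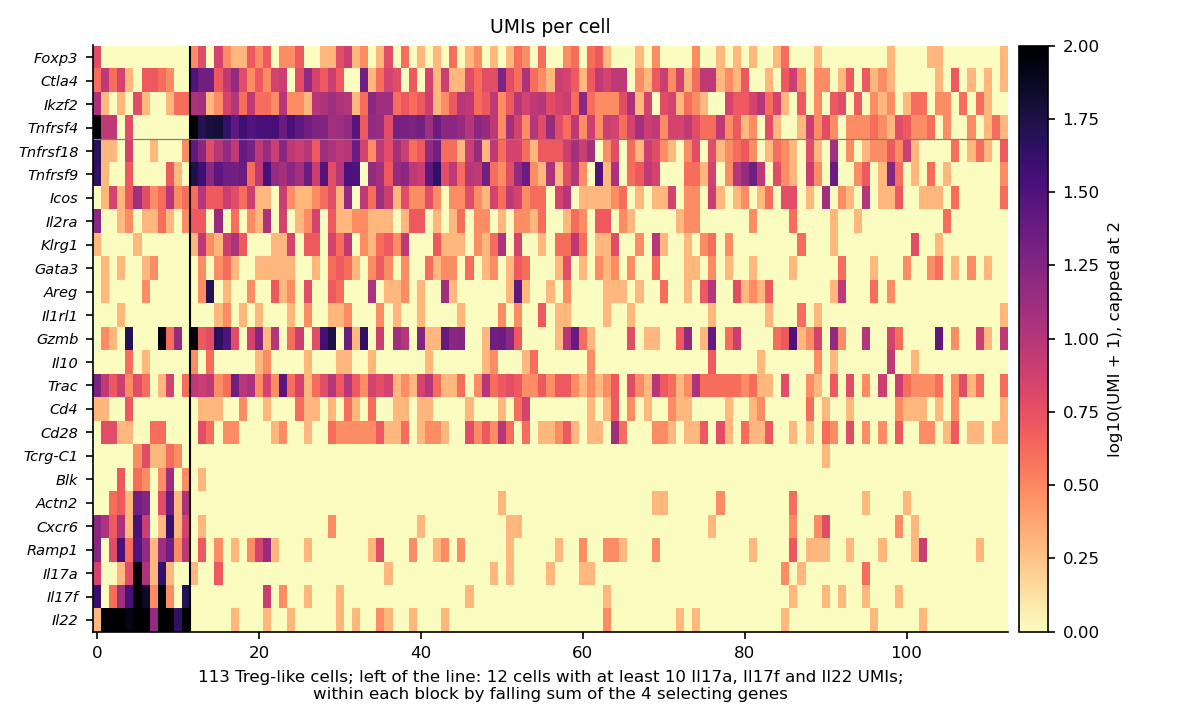
UMIs per cell, as log10 of UMIs plus 1 capped at 2 (colour), for the genes named at the left in the 113 Treg-like cells (columns), with the 12 cells rich in Il17a, Il17f and Il22 left of the vertical line and each block ordered by the sum of the 4 selecting genes above the horizontal line. Cells rich in Il17a, Il17f and Il22 UMIs mostly had low sums of these genes and 1 of the 12 had a Foxp3 UMI.

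These 12 cells differed from the other 101 in many genes. Their UMIs per cell were higher, with a median of 13232 against 5593. Foxp3 was seen in 1 of 12 against 49 of 101, with thinned shares of 2.80% and 16.3%, and Klrg1 in 2 against 49, with thinned shares of 1.18% and 20.8%. Ighm and Igkc were seen in 0 of the 12 cells, which allows a share of cells with a UMI of up to 25%, against 47 and 28 of the 101. Cxcr6 was seen in 11 against 11, Ramp1 in 11 against 31, Actn2 in 9 against 7 and Tmem176b in 11 against 21. Tcrg-C1 and Blk, a kinase of γδ T cells that produce interleukin 17, were each seen in 6 of the 12 and 1 of the 101. Trac was seen in 10 of the 12 and 88 of the 101, with thinned shares of 25.6% and 44.5%.

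The counts of single cells show this in detail. The richest cell had 1104 UMIs of the 3 cytokines, a marker sum of 5, 2 Tcrg-C1 UMIs and 5 Trac UMIs. The next had 480 cytokine UMIs, a marker sum of 3, 1 Tcrg-C1 UMI and 1 Trac UMI. The tenth had 46 cytokine UMIs, 5 Foxp3 UMIs, a marker sum of 111 and 46 Tnfrsf18 UMIs, and it was the only one with Foxp3. The type 17-rich cells thus lay mostly close to the threshold of the rule, apart from this cell. At least 10 such UMIs were counted in 29 of 103 other Trdc-negative T cells (28.2%) and 69 of 120 Trdc+ T cells (57.5%), against 10.6% of Treg-like cells. Without the 12 cells, and without their counterparts in the reference groups, the list of Treg genes had 8 of 11 higher against other Trdc-negative T cells at a median log2 ratio of 1.95. Whether the 12 cells are Treg cells was not tested.

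Within the Treg-like cells, the 51 with a Klrg1 UMI and the 62 without are described side by side. The former were deeper, with a median of 6784 UMIs against 5433.5, so thinned shares are given beside the counts. Gata3 was seen in 32 against 22 cells (thinned 18.3% and 8.10%), Il1rl1 in 19 against 7 (9.03% and 2.74%) and Areg in 25 against 16 (21.2% and 10.5%). Itgae, the integrin CD103 that holds T cells at epithelia, was seen in 22 against 12 (13.6% and 5.51%) and Hopx, a regulator of induced Treg cells, in 27 against 13 (12.9% and 3.58%). Tnfrsf9 was seen in 46 against 38 cells (63.1% and 39.9%), and of the genes of the rule Foxp3 in 29 against 21 (19.0% and 11.4%) and Ctla4 in 45 against 44 (50.5% and 32.8%). Il22 ran the other way, with 9 against 18 cells (3.86% and 18.7%), and 2 of the 12 type 17-rich cells had Klrg1. Il10 was seen in 11 cells of each (5.15% and 5.17%). Klrg1-positive cells were thus richer in each tissue gene named here except Il10, and 25 of the 41 Areg-positive cells had Gata3.

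The 50 cells with a Foxp3 UMI and the 63 without were of like depth, with medians of 6182.5 and 5709 UMIs. Tnfrsf18 was seen in 47 against 45 cells (thinned 61.3% and 30.2%) and Tnfrsf9 in 46 against 38 (67.2% and 36.0%). Klrg1 was seen in 29 against 22 cells (25.3% and 13.0%) and Ccr8 in 9 against 4. Cd4 was level, with 19 against 25 cells (8.50% and 11.0%). Tcrg-C1 was seen in 0 of the 50, which allows a share of cells with a UMI of up to 6%, and in 7 of the 63 (thinned 2.41%), and Actn2 in 2 against 14. Cells without Foxp3 thus still carried the TNF receptors in most cases, and all the cells with Tcrg-C1 were among them.

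**Figure D5:**
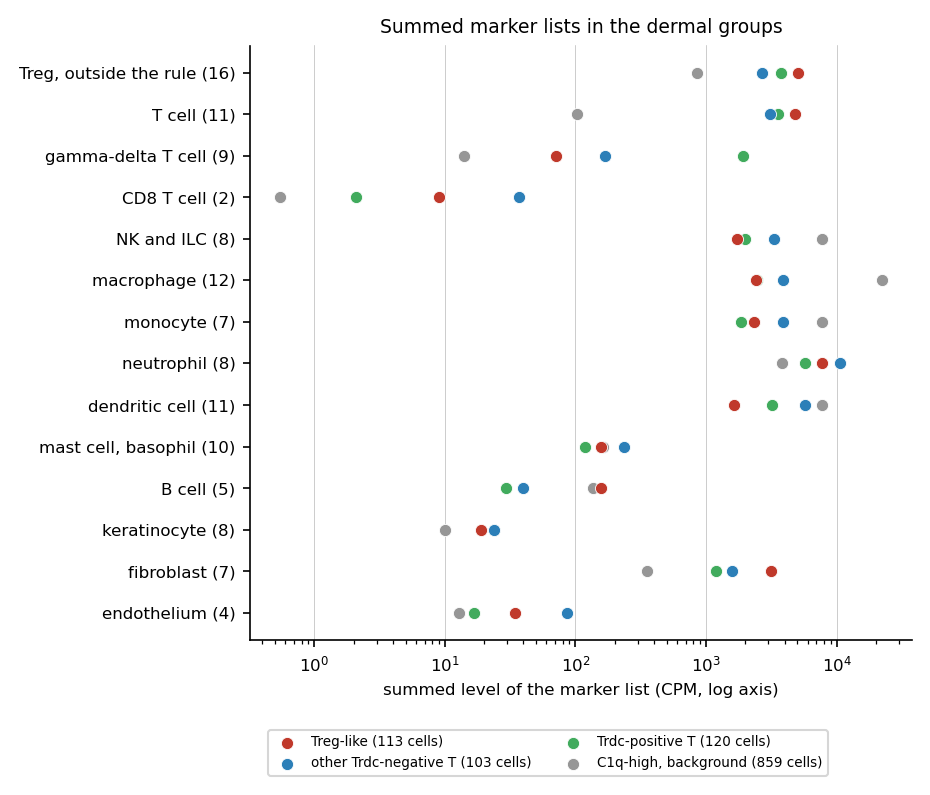
Summed CPM of marker lists (horizontal, log axis; the number of genes in each list in parentheses) in Treg-like cells, other Trdc-negative T cells, Trdc+ T cells and macrophages. Fibroblast markers were higher in Treg-like cells than in the other groups shown, and dendritic cell and macrophage markers were lower than in other Trdc-negative T cells.

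Transcripts of other cell types were present in all T cell groups. The 12 macrophage markers summed to 2427 CPM in Treg-like cells, 3871 CPM in other Trdc-negative T cells, 2442 CPM in Trdc+ T cells and 22259 CPM in macrophages, with Lyz2 the most abundant and none at 0. The 11 dendritic cell markers summed to 1653, 5778 and 3215 CPM in the T cell groups, led by Cd74, with Xcr1, Clec9a and Cd207 at 0 in Treg-like cells. MHC class II genes belong to this list, and H2-Ab1 was 3.74-fold (3.26 to 4.31) and 2.28-fold (1.99 to 2.64) higher in the reference groups. The 8 neutrophil markers summed to 7791, 10693 and 5720 CPM, led by S100a8. Of the 10 genes named as most reduced against other Trdc-negative T cells, Clec12a, H2-DMb1, H2-Aa, H2-Ab1, Pirb and Cd68 are known from myeloid or antigen-presenting cells, and the part of such RNA in these ratios was not tested.

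Fibroblast transcripts ran higher in Treg-like cells than in the other groups. The 7 markers summed to 3174 CPM in Treg-like cells, 1575 CPM in other Trdc-negative T cells, 1203 CPM in Trdc+ T cells and 354 CPM in macrophages, with Dcn the most abundant at 1551 UMIs and none at 0. The 12 Treg-like cells with the most held 2658 of 2837 of these UMIs (93.7%). At least 20 such UMIs were found in 12 Treg-like cells, 8 other Trdc-negative T cells and 9 Trdc+ T cells. When these cells were removed, in an alternative added after the data were seen, 153 of the 210 genes higher and 90 of the 123 lower than in other Trdc-negative T cells were shared with the reported calls, and 151 of 247 and 92 of 120 in the comparison with Trdc+ T cells. Against other Trdc-negative T cells, 10 of 13 costimulatory receptors were then higher, at a median log2 ratio of 2.19, 8 of 11 Treg genes were higher, 3 instead of 5 type 17 genes were lower and 7 instead of 5 cell cycle genes were lower. The part of fibroblast RNA in single genes was not tested.

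Immunoglobulin transcripts were higher as well. Igkc, the κ light chain, had 134 UMIs in 28 Treg-like cells, 8 in other Trdc-negative T cells and 3 in Trdc+ T cells, a 19.5-fold (10.2 to 48.7) and 61.5-fold (23.9 to 351) higher level. Ighm, the μ heavy chain, had 129 UMIs in 41.6% of Treg-like cells, against 18.4% and 10.8% of the reference cells and 40.7% of macrophages. The B cell markers Cd79a and Ms4a1 were at 0 in Treg-like cells, and 16 of the 47 cells with Ighm had Igkc. The source of these transcripts was not tested. Markers of natural killer cells summed to 1737 CPM against 3318 and 2004 CPM, with Ncr1, Klra4 and Eomes at 0 in Treg-like cells, and 8 keratinocyte markers summed to 19.0 CPM.

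Of the cell cycle genes compared, 5 were lower and 0 higher in each comparison. A Mki67 or Top2a UMI, from genes of dividing cells, was seen in 25 Treg-like cells (22.1%, 14.9 to 30.9), 28 other Trdc-negative T cells (27.2%, 18.9 to 36.8) and 33 Trdc+ T cells (27.5%, 19.7 to 36.4). These shares are not thinned, and the Treg-like cells were the shallowest group. Of 20 cell cycle genes, 0 of 13 compared were higher and 5 lower than in other Trdc-negative T cells. Of all genes compared, 5.4% were higher and 3.16% lower, so 0 higher is close to the share over all genes. Birc5 and Ube2c, genes of mitosis, were 3.21-fold (2.13 to 5.11) and 3.62-fold (2.44 to 5.69) higher in that reference, whereas Pcna, of DNA replication, was level at 97.3 and 89.1 CPM. Against Trdc+ T cells 0 of 14 were higher and 5 lower (median log2 ratio −0.94), against 5.79% of all genes higher and 2.81% lower. The count against Trdc+ T cells became 1 of 6 lower (median −0.41) without the type 17-rich cells. It became 9 of 14 (−1.19) without the fibroblast-rich cells and 8 of 14 (−1.13) without the highest doublet scores. Against other Trdc-negative T cells the median log2 ratio of −0.54 became 0.11 without the type 17-rich cells (1 of 8 lower), −1.09 without the fibroblast-rich cells (7 of 13 lower) and −1.18 without the highest doublet scores (7 of 13 lower).

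Some interferon-induced genes were higher. Of 24 listed genes, 3 of 8 compared were higher than in other Trdc-negative T cells (median log2 ratio 0.66) and 4 of 9 higher than in Trdc+ T cells (median 0.89), with 0 lower, against 5.4% and 5.79% of all genes higher. Ifi27l2a had 936 UMIs in 93 Treg-like cells and was 3.15-fold (2.79 to 3.57) and 4.92-fold (4.32 to 5.62) higher, although 730 of the 859 macrophages also had it, at 627 CPM. Igtp, an interferon-γ-induced GTPase, was 3.63-fold (2.13 to 6.69) and 4.98-fold (2.90 to 9.35) higher. Without the type 17-rich cells 2 of 6 genes were higher than in Trdc+ T cells and the median of the list was 0.02.

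Stress transcripts, which tissue digestion can induce, were within 2-fold in the reported setting. This held for all 16 listed genes of dissociation and AP-1 in both comparisons, at median log2 ratios of −0.07 and −0.02. Of all genes compared, 5.4% and 5.79% were higher and 3.16% and 2.81% lower. With a Foxp3 UMI required in Treg-like cells, 1 of 16 was lower than in other Trdc-negative T cells and 3 of 16 lower than in Trdc+ T cells, with 0 higher. Hspa1a, a heat shock gene, was at 7283 CPM in Treg-like cells and 6331 CPM in other Trdc-negative T cells, and Fos at 333 and 452 CPM. Of 12 metabolic genes compared, Odc1, the first enzyme of polyamine synthesis, was the only one higher than in other Trdc-negative T cells, at 3.49-fold (3.01 to 4.06), beside 5.4% of all genes. Without fibroblast-rich cells 2 of 11 were higher in that comparison, and without the highest doublet scores 2 of 10. Against Trdc+ T cells 1 of 12 metabolic genes was higher and 1 lower, beside 5.79% and 2.81% of all genes.

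Genes of nerve signals and receptors for matrix were examined because the study concerns fibroblast matrix and cutaneous nerves. Of 21 listed genes of nerve signals, 4 were compared, with 1 higher and 0 lower than in other Trdc-negative T cells (median log2 ratio 0.68) and 1 higher and 1 lower than in Trdc+ T cells (median 0.40), beside 5.4% and 5.79% of all genes higher and 3.16% and 2.81% lower. The higher gene was Penk in both, which rested on few cells as given above, and the lower was Ramp1. With a Trac UMI required in both groups, 3 of 4 were higher and 1 lower than in other Trdc-negative T cells, where 226 genes in all were higher and 73 lower. With 4 genes compared, these counts do not describe nerve signal genes as a class. Ramp1, which with its partner forms the receptor of the neuropeptide CGRP, had 217 UMIs in 42 Treg-like cells, at 243 CPM against 395 and 562 CPM, so its level was 1.63-fold (1.38 to 1.93) and 2.31-fold (1.99 to 2.70) higher in the reference groups. Of these UMIs, 144 came from 11 of the 12 type 17-rich cells and 73 from 31 of the other 101, and 26.1% of macrophages had the transcript (thinned 3.55%, against 11.5% of Treg-like cells). Adora2a, an adenosine receptor, had 32 UMIs against 7 and 11, below the minimum of 50. Itgav, the integrin αv chain, had 47 UMIs and was 2.85-fold (1.68 to 5.15) and 2.27-fold (1.43 to 3.67) higher, whereas Itgb1, Cd44 and Sdc4 were within 2-fold. With a mitochondrial limit of 5%, 0 of these 4 genes were 2-fold higher than in Trdc+ T cells.

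The rule found few cells in the epidermis. It kept 13 epidermal cells, of which 1 had a Foxp3 UMI, 2 a Ctla4 UMI, 1 a Klrg1 UMI and 5 a Trac UMI. These cells were deep, with a median of 22280 UMIs, and carried 13 to 963 UMIs of Krt14, a keratin of basal keratinocytes, with more than 100 in 8 of them. No dermal Treg-like cell had more than 100. In all 3277 passing epidermal cells, 8 Foxp3 UMIs were found in 5 cells. The 13 cells did not show the profile of the dermal Treg-like cells, and no Treg-like group was described in the epidermis.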

How the data were processed

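The authors processed the reads with Cell Ranger (version 3.0.2 in the matrix headers) and CASAVA on mm10, per the submitters' processing notes, and deposited raw UMI counts for every barcode called as a cell, in 1 dermal and 1 epidermal library of 3′ reads. From these counts, cells were selected by the rule in the text and UMIs were summed over each group, with ratios of CPM at a pseudocount of 0.5 UMI. Shares have Clopper-Pearson intervals and ratios exact conditional intervals, which leave out the spread between cells and mice. UMIs remove duplicates from amplification. Thinning gave the expected share of cells at 1000 UMIs.

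Genes were named by rank, as the 15 most raised and 10 most reduced per comparison among those in at least 20% of cells, or from fixed lists of genes. The members, lists and comparisons were chosen with earlier results of these data known. Hopx and Saa3 lie outside this rule and were chosen once their values had been seen. Gene positions came from GENCODE M21 (30934 of 31053 identifiers matched) and promoters from RefSeq on GRCm38.p6. A few listed genes are not reported here. Doublets were not removed in the values reported. Scrublet in scanpy 1.11.5 called only 6 of 4721 cells by its own threshold, so removing the top 178 scores was an alternative. Scripts used Python 3.11.15, numpy 2.4.6 and scipy 1.17.1 and were tested on simulated data.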

Additional observations from a re-analysis of the deposited data

How the results depend on the processing

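No paired analysis was possible because dermis and epidermis had 1 library each. The 113 Treg-like cells became 50 (14.9% of dermal T cells) when a Foxp3 UMI was required and 95 with C1q under 5 per 10000 UMIs. Other limits on mitochondria, doublets or marker UMIs left 98 or 99. Without the cells rich in Il17a, Il17f and Il22, in both groups, Treg-like cells were 44.7% of T cells and 148 instead of 247 genes were higher than in Trdc+ T cells. That setting, the removal of cells rich in fibroblast transcripts and the removal of cells with Tcrg-C transcripts were added after the data were seen. A minimum of 20 UMIs gave 493 genes higher and 319 lower against other Trdc-negative T cells, and 576 higher and 313 lower against Trdc+ T cells. With a Trac UMI required, 73 instead of 123 genes were lower than in other Trdc-negative T cells, and 131 of the 210 higher and 32 of the 123 lower genes were shared with the reported lists. Per-cell means gave 199 instead of 120 genes lower than in Trdc+ T cells. Shares over all genes are given for the reported setting only. List counts under other settings stand beside totals alone. Against other Trdc-negative T cells 198 genes were higher and 158 lower with a Foxp3 UMI required. The totals were 211 and 173 without the highest doublet scores, and 217 and 139 without fibroblast-rich cells. Without type 17-rich cells they were 209 and 139. Detection depended on depth. Without thinning and at 2000 UMIs, Foxp3 was seen in 44.2% and 23.3% of Treg-like cells, Tnfrsf18 in 81.4% and 58.0% and Klrg1 in 45.1% and 27.6%, and Tnfrsf9 without thinning in 74.3%. Of 1218 recomputed ratios of named genes, 226 fell outside the counting interval of the reported ratio, 44 of them without the cells rich in Il17a, Il17f and Il22 and 34 with a Foxp3 UMI required. A single ratio past 2-fold changed sign, Il22 against other Trdc-negative T cells, from a log2 ratio of −1.19 to 0.027 without cells that had a Tcrg-C1, Tcrg-C2 or Tcrg-C4 UMI. The cause was not tested.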
